A study of Mus musculus with 20 samples.

Results

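The genes described here encode lysosomal enzymes, other lysosomal proteins, the MiT/TFE transcription factors that regulate them and the vacuolar proton pump. They were taken by gene symbol from a fixed list of 38 members, all of which were found among the 56805 genes counted, and all 38 were among the 21306 genes with enough reads to be tested. White adipose tissue of 20 mice was profiled by RNA sequencing, with 5 mice in each of 4 groups that ate and drank freely for 10 weeks. High-fat tea mice received a high-fat diet together with Tibetan tea, a dark fermented tea given as an extract in water, high-fat water mice received the same diet with water, chow tea mice received chow with the extract, and chow water mice received chow with water. Each library came from a different mouse. No genetic change is named for any group, and the adipose depot, strain, sex and age of the mice, the dose of the extract and the fat content of the diet are not stated in the sources used here.

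Lysosomes break down proteins, sugars and lipids delivered by endocytosis, phagocytosis and autophagy, with acid hydrolases that work at low pH. The vacuolar proton pump (V-ATPase) provides that acidity. Its V1 sector, on the cytosolic face, splits ATP, and its V0 sector, in the membrane, carries the protons. Tfeb, Tfe3 and Mitf, the MiT/TFE factors, bind a short palindrome around CACGTG, known as the CLEAR element, near the start of many lysosomal genes. In adipose tissue, macrophages that take up lipid from dying adipocytes are rich in lysosomes, and adipocytes themselves use lysosomes for part of their lipid turnover.

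Promoter sequence is shown for the 3 members that were called in both the diet and the tea comparison (Gla, Gusb and Atp6v0a1) and for 2 members with a CLEAR-type motif that were called in neither (Ctsd and Atp6v0d1). The sequences are RefSeq promoters of build GRCm38.p6, read from 250 bases before the annotated start to 20 bases after it, on the strand of the gene. Capitals mark the letters CACGTG, extended to TCACGTGA where the flanking bases match as well. The regions are chrX:134600986-134601255 for Gla (minus strand), chr5:130003030-130003299 for Gusb (minus strand), chr11:101010148-101010417 for Atp6v0a1 (plus strand), chr7:142387808-142388077 for Ctsd (minus strand) and chr8:105566045-105566314 for Atp6v0d1 (minus strand).
Gla: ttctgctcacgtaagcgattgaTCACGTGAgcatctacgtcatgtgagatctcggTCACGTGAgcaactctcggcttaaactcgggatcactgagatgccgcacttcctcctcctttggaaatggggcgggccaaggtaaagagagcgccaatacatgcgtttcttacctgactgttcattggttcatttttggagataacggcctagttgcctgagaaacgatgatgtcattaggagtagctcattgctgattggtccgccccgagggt
Gusb: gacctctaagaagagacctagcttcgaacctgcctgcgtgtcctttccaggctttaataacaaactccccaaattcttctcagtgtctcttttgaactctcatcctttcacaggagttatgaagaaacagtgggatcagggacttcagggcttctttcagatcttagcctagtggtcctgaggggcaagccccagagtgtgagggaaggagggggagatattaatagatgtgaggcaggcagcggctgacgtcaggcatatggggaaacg
Atp6v0a1: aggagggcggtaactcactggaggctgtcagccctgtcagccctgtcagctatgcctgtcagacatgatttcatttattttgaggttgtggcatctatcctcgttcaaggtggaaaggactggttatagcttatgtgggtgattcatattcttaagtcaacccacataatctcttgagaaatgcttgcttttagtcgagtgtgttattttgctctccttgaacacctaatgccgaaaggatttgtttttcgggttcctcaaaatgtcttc
Ctsd: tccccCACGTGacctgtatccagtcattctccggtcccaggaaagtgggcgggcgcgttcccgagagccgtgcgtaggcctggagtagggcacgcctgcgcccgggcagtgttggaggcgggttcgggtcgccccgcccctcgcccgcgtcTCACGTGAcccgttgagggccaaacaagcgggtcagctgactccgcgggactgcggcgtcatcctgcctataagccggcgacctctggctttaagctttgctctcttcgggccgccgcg
Atp6v0d1: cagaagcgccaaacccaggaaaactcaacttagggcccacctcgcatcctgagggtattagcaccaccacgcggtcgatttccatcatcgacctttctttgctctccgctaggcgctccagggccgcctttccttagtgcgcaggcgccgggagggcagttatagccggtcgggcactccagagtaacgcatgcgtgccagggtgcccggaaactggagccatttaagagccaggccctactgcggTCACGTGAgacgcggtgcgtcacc

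The Gla promoter held 2 copies of TCACGTGA, with the inner CACGTG starting 227 and 194 bases before the gene start, and the Ctsd promoter held a CACGTG at 245 bases and a TCACGTGA at 98 bases before it. The motif of Atp6v0d1 lay across the start, its CACGTG beginning 3 bases before it. No CACGTG was found in the windows of Gusb and Atp6v0a1. Sequence outside the windows, such as at another start of a gene, was not searched. Of the 38 members, 31 had a RefSeq window of 300 bases (250 before and 50 after a start), 6 of them more than 1 window. CACGTG, which reads the same on both strands, was present in 11 of these 31 members, against 8.09% of the 27025 genes with a window. TCACGTGA, which contains CACGTG, was present in 7 of 31 members (Atp6v0d1, Atp6v0e, Atp6v1a, Ctsa, Ctsd, Gla and Mcoln1), against 1.12% of all genes. CACGTG occurred in 5 of 10 enzyme genes and in 4 of 11 pump genes with a window.

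The libraries held 53047057 to 93314761 reads in genes. Levels are CPM, counts scaled to a common library size, and levels of different genes are compared as CPM per kilobase of exonic length. Differences are log2 fold changes with standard errors (SE) from the edgeR quasi-likelihood F test, whose p-values were adjusted over all genes tested, and called means an adjusted p under 0.05. Some libraries held transcripts of other organs. Chow water replicate 1 had 354300 CPM in a list of 6 genes of the exocrine pancreas, high-fat tea replicate 4 had 22170 CPM in 5 kidney genes and high-fat water replicate 4 had 27990 CPM in 4 genes of male accessory glands. Fits without 3 libraries left these out. The kidney genes also summed to 1547 CPM in chow water replicate 2, 520 CPM in chow tea replicate 3 and 215 CPM in chow tea replicate 2, which those fits kept. Skeletal muscle genes, a list of 5, summed to 27500 CPM in high-fat tea replicate 1 and 24260 CPM in high-fat water replicate 5, against 23.0 to 6970 CPM in the other 18 libraries. The summed level of 8 adipocyte genes was 7259 CPM in high-fat tea replicate 4 and 10230 CPM in chow water replicate 1, against 15920 to 35170 CPM in the other 18 libraries. Adipocyte markers were at 0 in no library.

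Every member was detected in every library, at levels between 4.3 CPM for Gla and 4944 CPM for Psap. Per kilobase and averaged over the 20 libraries, Psap led with 881 CPM per kb, ahead of the proteases Ctsd (293 CPM per kb) and Ctsb (274 CPM per kb), the membrane protein Lamp1 (192 CPM per kb) and the protease Ctsz (190 CPM per kb). The ranges of Ctsd, Ctsb, Lamp1 and Ctsz over the libraries overlapped. The order is one of means, and differences between these genes within a library were not tested. The 15 pump genes lay between 7.46 CPM per kb for Atp6v1h and 65.8 CPM per kb for Atp6v1g1. The 3 MiT/TFE factors were near the bottom, with 5.20 CPM per kb for Tfe3, 4.11 CPM per kb for Mitf and 2.71 CPM per kb for Tfeb, next to Gla at 2.90 CPM per kb.

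High-fat feeding was first compared with chow in mice that drank water. Lysosomal hydrolases were higher in high-fat water mice than in chow water mice, and most of the proton pump was not called. Of the 38 members, 11 rose and 0 fell, while 8.06% of all genes tested were called higher and 7.11% lower (15.2% in either direction). The rises were in 7 of 13 enzymes, in Psap, Laptm5 and Tfeb, and in 1 of 15 pump genes. The median log2 fold change was 0.81 over the enzymes and 0.22 over the pump genes, against −0.002 over all genes tested. In 9 of 38 members every high-fat water library was above every chow water library, against 7.34% of all genes (12.9% did not overlap in either direction). These were 6 enzymes, Psap, Atp6v0a1 and the pump accessory gene Atp6ap1, which was not called. Without the 3 libraries with the most pancreas, kidney or accessory gland transcripts, 13 members were called higher, Ctsd and Lamp1 among them, and Lamp2 was called lower. That fit called 21.2% of all genes in either direction. In a fit of only the groups compared, 8 were called higher, Ctsh among them, and the calls of Ctsb, Ctsl, Ctsz and Psap ended. Of all genes, 13.6% were called in that fit.

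**Figure D1:**
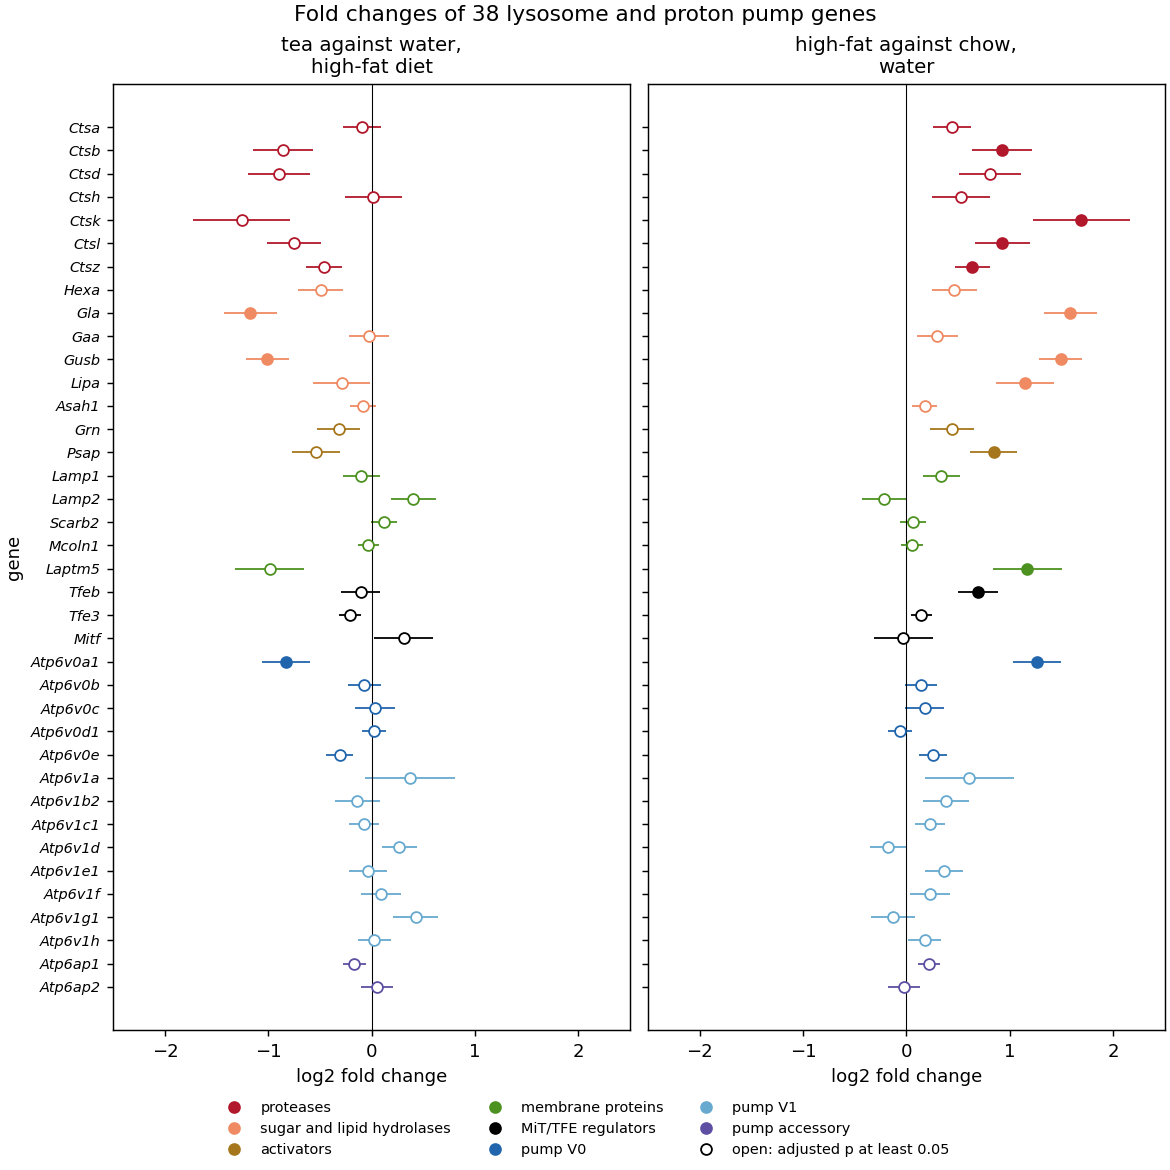
Log2 fold changes (points) with their SE (bars) of the 38 genes, grouped by role from top to bottom, for high-fat tea against high-fat water mice (left) and high-fat water against chow water mice (right). Filled points have an adjusted p below 0.05, namely 3 genes on the left, all below 0, and 11 on the right, all above 0.

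Among the hydrolases of sugars and lipids, 3 of 6 rose. Gla encodes alpha-galactosidase A, which removes galactose from glycolipids and is deficient in Fabry disease (GRCm39 chromosome X, 133488898 to 133501874, minus strand). It was at 28.1, 15.4, 13.9, 21.5 and 11.6 CPM in high-fat water mice, against 4.30, 5.88, 8.14, 4.98 and 6.80 CPM in chow water mice. Every high-fat water library was above every chow water library, and the log2 difference was 1.59 (SE 0.26, adjusted p = 0.00107).

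Gusb encodes beta-glucuronidase, an enzyme of glycosaminoglycan breakdown (chromosome 5, 130017852 to 130031890, minus strand). Its level was 194, 132, 106, 118 and 108 CPM in high-fat water mice, against 37.4, 38.4, 58.6, 42.6 and 57.0 CPM in chow water mice. These groups did not overlap either, with a log2 difference of 1.49 (SE 0.21, adjusted p = 0.000365). Lipa encodes lysosomal acid lipase, which hydrolyses cholesteryl esters and triglycerides in the lysosome (chromosome 19, 34469718 to 34504874, minus strand). It was at 370, 224, 186, 183 and 149 CPM in high-fat water mice, against 74.7, 102, 121, 88.5 and 115 CPM in chow water mice. Again no library overlapped, and the log2 difference was 1.15 (SE 0.28, adjusted p = 0.0116). Hexa, the alpha subunit of beta-hexosaminidase, Gaa, the acid alpha-glucosidase that degrades glycogen, and Asah1, acid ceramidase, had log2 differences of 0.46, 0.30 and 0.18 that were not called.

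Among the 7 proteases, 4 rose. Ctsk, cathepsin K, a collagen-degrading protease known from osteoclasts (chromosome 3, 95406567 to 95416673, plus strand), had the largest change of the 38 members. It was at 159, 73.5, 70.2, 60.5 and 51.4 CPM in high-fat water mice, against 8.01, 20.5, 39.5, 21.6 and 38.2 CPM in chow water mice. The groups did not overlap (log2 1.70, SE 0.47, adjusted p = 0.0231), and replicate 1 was the highest high-fat water library and replicate 1 the lowest chow water library. Ctsb, cathepsin B (chromosome 14, 63359911 to 63383372, plus strand), was at 3883, 2645, 2132, 1921 and 2181 CPM in high-fat water mice, against 587, 1162, 1592, 1566 and 1789 CPM in chow water mice. The groups did not overlap (log2 0.93, SE 0.29, adjusted p = 0.0386). Ctsb overlaps Fdft1 on the opposite strand over 12.8% of its exonic length, where reads of the pair cannot be told apart.

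Ctsl, cathepsin L (chromosome 13, 64507151 to 64518704, minus strand), was at 1675, 875, 683, 674 and 749 CPM in high-fat water mice, against 445, 441, 542, 418 and 598 CPM in chow water mice. Replicate 1 stood far above the other 4 high-fat water libraries, which were still above all chow water libraries (log2 0.93, SE 0.26, adjusted p = 0.0255). Ctsl shares 26.8% of its exonic bases with predicted genes on both strands, so its value is less certain. Ctsz, cathepsin Z, a carboxypeptidase (chromosome 2, 174269286 to 174280832, minus strand), was at 504, 362, 333, 262 and 288 CPM in high-fat water mice, against 173, 222, 264, 214 and 251 CPM in chow water mice. These groups overlapped by 1 library on each side (log2 0.64, SE 0.17, adjusted p = 0.0196). Ctsd, cathepsin D, the main aspartic protease of lysosomes, had a log2 difference of 0.81 that was not called (SE 0.30, adjusted p = 0.0744), and Ctsa and Ctsh had 0.44 and 0.53. Ctsd shares 34.4% of its exonic bases with a predicted gene on the same strand.

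The calls for 4 of these 7 enzymes depended on single libraries. Gla, Gusb and Lipa stayed called whichever of the 10 libraries was left out. The call ended without high-fat water replicate 1 for Ctsb (log2 0.73), Ctsk (1.32), Ctsl (0.61) and Ctsz (0.47), and the number of members called was then 4 (8.69% of all genes were called), with the enzymes Gla, Gusb and Lipa and the pump gene Atp6v0a1. That library had the highest summed level of 10 macrophage genes of all 20 (2880 CPM). Of the chow water libraries, replicate 1 was needed for the calls of Ctsb, Ctsl and Ctsz, and replicates 2 and 4 for those of Ctsb, Ctsk and Ctsl, while Ctsb also needed high-fat water replicate 2. The number of members called was 7 without chow water replicate 1 (15% of all genes were called), 6 without chow water replicate 2 (9.69%) and 7 without chow water replicate 4 (11.2%).

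Of the helper proteins, Psap rose and Grn was not called. Psap encodes prosaposin, the precursor of saposins that present sphingolipids to the hydrolases (chromosome 10, 60113449 to 60138376, plus strand). It was at 4944, 3418, 3053, 2533 and 2831 CPM in high-fat water mice, against 1010, 1810, 2209, 2086 and 2211 CPM in chow water mice. The groups did not overlap (log2 0.85, SE 0.23, adjusted p = 0.02), but the call ended without high-fat water replicate 1 or chow water replicate 2. Grn, the precursor of granulins, had a log2 difference of 0.44 (SE 0.21, adjusted p = 0.159).

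Of the 5 lysosomal membrane proteins, Laptm5 rose and 4 were not called. Laptm5, a lysosomal membrane protein of blood cells (chromosome 4, 130640436 to 130663452, plus strand), was at 278, 173, 173, 124 and 108 CPM in high-fat water mice, against 39.9, 58.3, 113, 62.8 and 105 CPM in chow water mice. Its groups overlapped by 1 library (log2 1.17, SE 0.33, adjusted p = 0.0249), and its call ended without high-fat water replicate 1 or chow water replicate 1, 2 or 4. Lamp1 and Lamp2, the most abundant lysosomal membrane glycoproteins, had log2 differences of 0.34 and −0.22. Scarb2, the receptor that carries glucocerebrosidase to the lysosome, and Mcoln1, a lysosomal calcium channel, had 0.06 each, and none of these 4 was called.

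**Figure D2:**
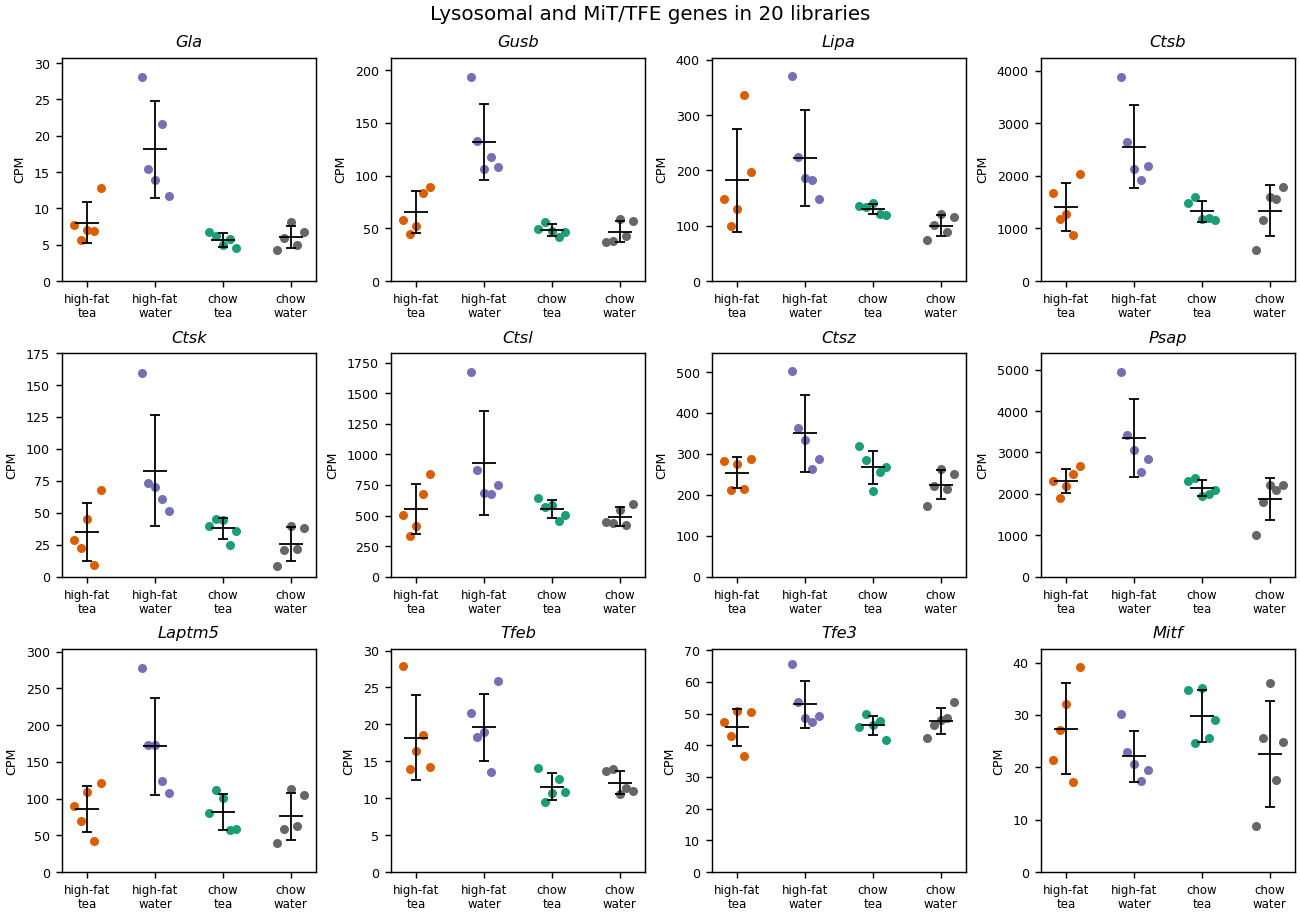
CPM of 9 lysosomal genes that were called after high-fat feeding and of the 3 MiT/TFE factors in each library (points), with the mean and SD of 5 mice per group (black). Gusb is higher in each of the 5 high-fat water libraries than in any other library. So is Gla, except that high-fat tea replicate 5 (12.8 CPM) is above high-fat water replicate 5 (11.6 CPM). Tfe3 and Mitf overlap between all groups.

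Of the 3 MiT/TFE factors, Tfeb rose, and Tfe3 and Mitf were not called. Tfeb (chromosome 17, 48047955 to 48103344, plus strand) was at 21.5, 18.3, 18.9, 13.5 and 25.9 CPM in high-fat water mice, against 13.7, 14.0, 10.6, 11.4 and 10.9 CPM in chow water mice. High-fat water replicate 4 lay within the chow water range and the other 4 libraries were above it (log2 0.70, SE 0.19, adjusted p = 0.0234). The call ended when high-fat water replicate 1 or 5, or chow water replicate 3, was left out. The highest Tfeb level of the group was in high-fat water replicate 5, which also had its highest sum of skeletal muscle genes (24260 CPM). Without that library and high-fat tea replicate 1 together, a choice made after the data were seen, the log2 difference of Tfeb was 0.58 (adjusted p = 0.0284).

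Tfe3 (chromosome X, 7628799 to 7641441, plus strand) was at 65.6, 53.5, 48.7, 47.2 and 49.2 CPM in high-fat water mice, against 42.3, 46.3, 47.9, 48.5 and 53.6 CPM in chow water mice. Mitf (chromosome 6, 97784013 to 97998310, plus strand) was at 30.1, 23.0, 20.6, 17.3 and 19.5 CPM in high-fat water mice, against 8.76, 25.6, 36.1, 17.5 and 24.8 CPM in chow water mice. Both overlapped widely between the groups. The log2 difference was 0.15 for Tfe3 (95% interval −0.07 to 0.37, adjusted p = 0.356) and −0.03 for Mitf (95% interval −0.63 to 0.57, adjusted p = 0.958). With 5 mice per group, the lack of a call does not show that either gene was unchanged.

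Of the pump, only Atp6v0a1 was called. It encodes the a1 form of the V0 subunit along which protons pass (chromosome 11, 100900278 to 100954545, plus strand). Its level was 302, 212, 160, 164 and 187 CPM in high-fat water mice, against 60.2, 77.1, 93.2, 84.1 and 111 CPM in chow water mice. The groups did not overlap (log2 1.27, SE 0.23, adjusted p = 0.00239), and the call held whichever library was left out. The other 4 V0 genes had log2 differences between −0.06 for Atp6v0d1 and 0.26 for Atp6v0e. The 8 V1 genes lay between −0.18 for Atp6v1d, in the stalk, and 0.61 for Atp6v1a, the catalytic subunit, and 0 of 8 were called. The accessory proteins Atp6ap1 and Atp6ap2 had 0.22 and −0.02. For Atp6v0d1, which couples the sectors, the 95% interval of the log2 difference was −0.31 to 0.18. Chow water replicate 2, with 1547 CPM of kidney genes, held the highest level of every V1 gene among the chow water libraries. Its summed pump level was 526.1 CPM per kb, against 382.8 to 483.9 CPM per kb in the others. Without it the pump median was 0.26, and 1 pump gene was called, against 9.69% of all genes. The part of kidney tissue in these levels was not tested.

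Other isoforms and regulators were read from lists beyond the 38 members. Of 11 further pump genes, 9 were tested and 3 rose, all isoforms of V0 subunits. Tcirg1, the a3 form known from osteoclasts and lysosome-rich cells, was at 123, 77.4, 67.9, 60.0 and 53.9 CPM in high-fat water mice, against 37.98, 22.8, 38.4, 21.7 and 28.6 CPM in chow water mice. The groups did not overlap (log2 1.36, SE 0.23, adjusted p = 0.00131). Atp6v0d2, the d2 form of osteoclasts and macrophages, was at 130, 60.7, 45.1, 42.8 and 31.5 CPM in high-fat water mice, against 0.717, 4.69, 1.27, 0.750 and 1.80 CPM in chow water mice. All high-fat water libraries were far above all chow water libraries (adjusted p = 0.00118), whereas its widely expressed partner form Atp6v0d1 was not called. Atp6v0e2 rose by 0.99 on the log2 scale (SE 0.22).

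Of 48 further lysosomal genes, 11 rose and 2 fell, and the median log2 difference was 0.30. Naglu and Sgsh, both enzymes of heparan sulphate breakdown, rose by 0.98 (SE 0.15) and 1.00 (SE 0.17) on the log2 scale. Ctss, cathepsin S, the protease that processes the invariant chain of class II molecules, was called higher as well (log2 2.08, SE 0.35, adjusted p = 0.00141). The members that fell, named after their values were seen, were Npc1, a cholesterol exporter of the lysosome (log2 −0.92), and Ctns, the cystine exporter (log2 −0.26). Of 19 genes of nutrient sensing at the lysosome, 2 rose, Lamtor1 and Rptor, and 0 fell. Of 19 autophagy genes, 3 rose and 2 fell.

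Some macrophage genes rose with these members and others did not. Of 10 macrophage markers, 3 rose and 1 fell, with Adgre1, the F4/80 antigen, at a log2 difference of 1.51 (SE 0.41) and Mertk at −0.77 (SE 0.18). Of these log2 differences 8 were above 0 and 2 below (median 0.72). Cd163, named after its values were seen, averaged 84.7 CPM in high-fat water mice and 165 CPM in chow water mice. Cd68, a lysosomal membrane protein used as a macrophage marker, was at 296, 151, 122, 110 and 95.9 CPM in high-fat water mice, against 16.1, 40.9, 91.3, 44.4 and 92.2 CPM in chow water mice (log2 1.44, SE 0.47, adjusted p = 0.0477), with no overlap. The summed level of the 10 markers was 1201 to 2880 CPM in high-fat water mice, against 555 to 1855 CPM in chow water mice. Of 8 markers of lipid-associated macrophages, 5 rose, with Trem2, a lipid receptor, at a log2 difference of 4.04 (SE 0.62). In this list 7 log2 differences were above 0 and 1 below, that of Spp1 (−1.04, named after its values were seen). Lpl, which adipocytes also express, made up 83.9% to 97.2% of the sum of this list, and the other 7 genes summed to 846 to 1913 CPM in high-fat water mice, against 194 to 339 CPM in chow water mice, with no overlap. No gene of either macrophage list was at 0 in any library. The part of macrophage number in the differences of the 38 members was not tested, and in bulk tissue more cells of a type and more RNA per cell cannot be told apart. Of 8 adipocyte markers 1 rose, the hormone gene Lep, and 0 fell, with 4 log2 differences above 0 and 4 below (median −0.14, range −0.91 for Pnpla2 to 4.77 for Lep). Adipoq, the adipocyte hormone adiponectin, had a log2 difference of 0.11 (SE 0.37, adjusted p = 0.87), and Plin1, a coat protein of lipid droplets, 0.36 (SE 0.32, adjusted p = 0.477).

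The next comparison asked what tea changed on the high-fat diet. Gla, Gusb and Atp6v0a1, the members with the lowest p in the diet comparison, were lower in high-fat tea mice, and no member was higher. Of 38 members 3 fell and 0 rose, against 2.3% of all genes called lower and 2.06% called higher (4.36% in either direction). The median log2 difference was −0.49 over the 13 enzymes, 12 of them below 0, against 0.02 over all genes tested. At an unadjusted p below 0.05, 8 of 13 enzymes and 2 of 15 pump genes passed, against 23.6% of all genes. The libraries of high-fat water mice served in this and in the diet comparison, so the opposite signs in the pair of comparisons are not independent.

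Gusb was at 57.8, 44.8, 52.6, 83.4 and 88.8 CPM in high-fat tea mice, against 194, 132, 106, 118 and 108 CPM in high-fat water mice. It was the 1 member whose groups did not overlap, against 3.18% of all genes in this direction and 5.55% in either (log2 −1.01, SE 0.21, adjusted p = 0.0145), and its call held whichever library was left out. Gla was at 7.78, 5.67, 6.98, 6.95 and 12.8 CPM in high-fat tea mice, against 28.1, 15.4, 13.9, 21.5 and 11.6 CPM in high-fat water mice. High-fat tea replicate 5 lay above the lowest high-fat water library (log2 −1.17, SE 0.26, adjusted p = 0.0189), and the call ended when replicate 1 of the high-fat water group, or replicate 2 or 3 of the high-fat tea group, was left out.

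Atp6v0a1 was at 126, 80.1, 100, 79.7 and 193 CPM in high-fat tea mice, against 302, 212, 160, 164 and 187 CPM in high-fat water mice. High-fat tea replicate 5 lay within the high-fat water range and the other 4 were below it. The log2 difference was −0.83 (SE 0.23, adjusted p = 0.0486), close to the threshold, and leaving out any library other than high-fat tea replicate 5 ended the call, at log2 differences between −0.90 and −0.64. With the fit limited to the groups compared, 0 members were called, against 3 with all 20 libraries. That fit called 0.107% of all genes, against 4.36% with all 20 libraries. Leaving out 1 library gave 1 call without high-fat water replicate 1, high-fat tea replicate 2 or high-fat tea replicate 3, and 7 calls without high-fat tea replicate 5. At most 1.53% of all genes were called in the fits with 1 call, and 9.26% in the fit with 7. DESeq2 called 7 members lower, adding Ctsb, Ctsd, Ctsl and Laptm5, and 11.5% of all genes in either direction. Without the 3 libraries that held transcripts of pancreas, kidney or male accessory glands, 8 members were called lower. They were Gla, Gusb, Atp6v0a1, Atp6v1a, Ctsb, Ctsd, Lamp1 and Psap. That fit called 7.48% of all genes in either direction. Without the 2 libraries with the most skeletal muscle transcripts, Gla and Gusb were called, with 1.91% of all genes called.

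The proteases had log2 differences between −1.26 for Ctsk and 0.02 for Ctsh, and 0 of 7 were called. Ctsb was at 1672, 1171, 1284, 880 and 2042 CPM in high-fat tea mice, against 3883, 2645, 2132, 1921 and 2181 CPM in high-fat water mice. Only high-fat tea replicate 5 was above the lowest high-fat water library (log2 −0.86, SE 0.29, adjusted p = 0.0905). Ctsk was at 28.9, 22.6, 45.2, 8.95 and 67.9 CPM in high-fat tea mice, against 159, 73.5, 70.2, 60.5 and 51.4 CPM in high-fat water mice (log2 −1.26, SE 0.47, adjusted p = 0.114). Here too high-fat tea replicate 5 was the 1 library within the high-fat water range.

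Ctsl was at 505, 336, 410, 675 and 836 CPM in high-fat tea mice, against 1675, 875, 683, 674 and 749 CPM in high-fat water mice (log2 −0.75, SE 0.26, adjusted p = 0.0988). Ctsz was at 281, 212, 276, 213 and 287 CPM in high-fat tea mice, against 504, 362, 333, 262 and 288 CPM in high-fat water mice (log2 −0.46, SE 0.17, adjusted p = 0.114). In both genes the groups overlapped.

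Lipa, which had risen with the diet, was not called here. It was at 149, 99.0, 130, 336 and 197 CPM in high-fat tea mice, against 370, 224, 186, 183 and 149 CPM in high-fat water mice, with a log2 difference of −0.29 (SE 0.28, adjusted p = 0.573). High-fat tea replicate 4, the library with the most kidney transcripts, was the highest of its group, and without it the log2 difference of Lipa was −0.63 (adjusted p = 0.141). Hexa, Gaa and Asah1 had log2 differences of −0.49, −0.02 and −0.08, and none was called.

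Psap was at 2301, 1889, 2195, 2487 and 2682 CPM in high-fat tea mice, against 4944, 3418, 3053, 2533 and 2831 CPM in high-fat water mice. The groups overlapped through high-fat tea replicate 5 (log2 −0.54, SE 0.23, adjusted p = 0.162). Laptm5 was at 89.4, 69.6, 109, 42.6 and 121 CPM in high-fat tea mice, against 278, 173, 173, 124 and 108 CPM in high-fat water mice (log2 −0.99, SE 0.33, adjusted p = 0.0875). Its groups overlapped through high-fat tea replicates 3 and 5. Grn had a log2 difference of −0.32, Lamp1 −0.10, Lamp2 0.41, Scarb2 0.12 and Mcoln1 −0.03, and none of these 5 was called. Lamp2 was at 717 CPM in high-fat tea replicate 4 and at 269 to 334 CPM in the other 4 high-fat tea libraries, against 273 to 319 CPM in high-fat water mice.

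None of the MiT/TFE factors was called. Tfeb was at 27.9, 14.0, 16.4, 18.6 and 14.2 CPM in high-fat tea mice, against 21.5, 18.3, 18.9, 13.5 and 25.9 CPM in high-fat water mice. The groups covered each other, with a log2 difference of −0.11 (95% interval −0.51 to 0.30, adjusted p = 0.792). Tfe3 was at 47.3, 43.1, 50.8, 36.7 and 50.5 CPM in high-fat tea mice, against 65.6, 53.5, 48.7, 47.2 and 49.2 CPM in high-fat water mice (log2 −0.21, SE 0.10, adjusted p = 0.231). Mitf was at 21.4, 27.2, 32.0, 17.1 and 39.1 CPM in high-fat tea mice, against 30.1, 23.0, 20.6, 17.3 and 19.5 CPM in high-fat water mice (log2 0.31, SE 0.29, adjusted p = 0.557).

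The pump genes had a median log2 difference of 0.02 with all libraries, −0.08 by limma voom and −0.26 without high-fat tea replicate 4. In that library 14 of 15 pump genes were above the other 4 high-fat tea libraries and 11 of 15 were the highest of all 20 libraries, among them all 8 V1 genes, whereas 1 of 13 enzymes was. Atp6v1a was at 98.1, 87.6, 82.6, 582 and 125 CPM in high-fat tea mice, against 202, 153, 133, 144 and 120 CPM in high-fat water mice. Replicate 4 was far above every other library, and 3 of the other 4 high-fat tea libraries were below all high-fat water libraries. Besides Atp6v0a1, the V0 genes had log2 differences between −0.31 for Atp6v0e and 0.03 for Atp6v0c. The V1 genes lay between −0.14 for Atp6v1b2 and 0.43 for Atp6v1g1, and Atp6ap1 and Atp6ap2 had −0.17 and 0.06.

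Subunit forms of acid-secreting epithelia such as the kidney's intercalated cells, 2 of them (Atp6v0a4 and Atp6v1g3) named after their values were seen, were also high in high-fat tea replicate 4. Atp6v0a4 was at 0.0279, 1.52, 2.86, 209 and 2.18 CPM in high-fat tea mice, against 1.08, 1.90, 1.10, 0.496 and 0.700 CPM in high-fat water mice. Atp6v1b1 reached 71.9 CPM and Atp6v1g3 reached 29.9 CPM in replicate 4, and Tfec, a relative of the MiT/TFE factors, 10.2 CPM. In chow water replicate 2, Atp6v0a4 was at 28.4 CPM, Atp6v1b1 at 10.7 CPM and Atp6v1g3 at 6.13 CPM. The part of kidney tissue in the pump levels of these libraries was not tested. Without high-fat tea replicate 4, 2 members were called lower, Gla and Gusb, and 3.72% of all genes were called.

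**Figure D3:**
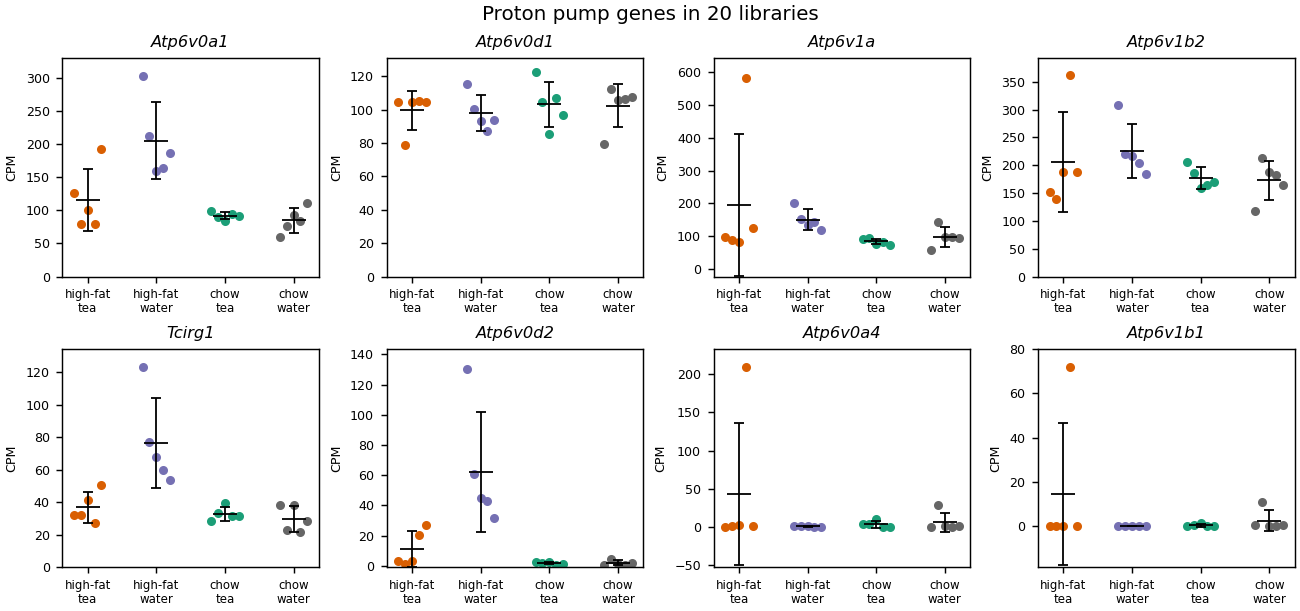
CPM of 4 members of the pump (top row) and of 4 other forms of its subunits (bottom row) in each library (points), with mean and SD of 5 mice per group (black), whose lower end falls below 0 where 1 library is far above the rest. Atp6v0a1, Tcirg1 and Atp6v0d2 are high in high-fat water mice, and high-fat tea replicate 4 is by far the highest point of Atp6v1a, Atp6v0a4 and Atp6v1b1.

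Of the further pump genes, Tcirg1 was at 32.4, 32.1, 41.3, 27.3 and 50.9 CPM in high-fat tea mice, against 123, 77.4, 67.9, 60.0 and 53.9 CPM in high-fat water mice. The groups did not overlap (log2 −1.06, SE 0.23, adjusted p = 0.0178). Atp6v0d2 was at 3.11, 1.45, 2.86, 20.7 and 27.1 CPM in high-fat tea mice, against 130, 60.7, 45.1, 42.8 and 31.5 CPM in high-fat water mice. These groups did not overlap, but the gene was not called (log2 −2.49, SE 0.74, adjusted p = 0.0618). Of 48 further lysosomal genes, 3 fell and 1 rose. Those that fell were Ctss (log2 −1.85, SE 0.35), Gnptab, which makes the mannose 6-phosphate tag of lysosomal enzymes (log2 −0.72, SE 0.13), and Cstb, an inhibitor of cathepsins (log2 −0.80, SE 0.20). Npc1 rose by 1.10 on the log2 scale (SE 0.31, named after its value was seen). Of 19 nutrient-sensing genes 0 were called by edgeR and 3 had an unadjusted p below 0.05. Of 19 autophagy genes Ulk1, an autophagy-initiating kinase, and Gabarapl1, a membrane tag of autophagosomes, rose by 0.67 (SE 0.16) and 0.93 (SE 0.25). Gabarapl1 was at 743 CPM in high-fat tea replicate 4 and at 279 to 398 CPM in the other high-fat tea libraries. It was at 187 to 235 CPM in high-fat water mice.

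Of the 10 macrophage markers, 0 were called in this comparison by edgeR and 5 passed an unadjusted p below 0.05, with a median log2 difference of −0.50. Cd68 was at 79.8, 56.6, 93.4, 22.2 and 134 CPM in high-fat tea mice, against 296, 151, 122, 110 and 95.9 CPM in high-fat water mice (ratio 0.499, SE of the log2 difference 0.47, adjusted p = 0.203), and high-fat tea replicate 5 was the 1 library within the high-fat water range. The summed level of the 10 markers was 573 to 1782 CPM in high-fat tea mice, against 1201 to 2880 CPM in high-fat water mice. Of 8 lipid-associated macrophage markers 4 fell and 0 rose, with 7 log2 differences below 0 and 1 above. The 1 above was that of Spp1 (2.44, named after its values were seen). Spp1 was at 207 CPM in high-fat tea replicate 4 and at 6.32 to 12.3 CPM in the other high-fat tea libraries. It was at 5.90 to 12.5 CPM in high-fat water mice. The 7 markers without Lpl summed to 234 to 791 CPM in high-fat tea mice, against 846 to 1913 CPM in high-fat water mice, with no overlap. Of 8 adipocyte markers 0 were called by edgeR and 1 had an unadjusted p below 0.05, with 4 log2 differences above 0 and 4 below (median −0.01, range −2.65 for Lep to 0.70 for Pnpla2). Those of Adipoq and Plin1 were −0.19 and −0.43. The part of macrophage markers in the lower Gla, Gusb and Atp6v0a1 was not tested.

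Enzymes and pump were set side by side as sums of CPM per kb, as a description without a test. In the enzyme sum Ctsd, Ctsb and Ctsz weigh most (293, 274 and 190 CPM per kb averaged over the 20 libraries). Gla and Gusb weigh little (2.90 and 16.1 CPM per kb). The 13 enzymes summed to 981 ± 217 CPM per kb in high-fat tea mice, 1579 ± 474 CPM per kb in high-fat water mice, 995 ± 138 CPM per kb in chow tea mice and 908 ± 239 CPM per kb in chow water mice (SD, n = 5 each). The 15 pump genes summed to 531 ± 182 CPM per kb in high-fat tea mice, 528 ± 58.7 CPM per kb in high-fat water mice, 460 ± 44.2 CPM per kb in chow tea mice and 459 ± 52.5 CPM per kb in chow water mice. The ratio of enzymes to pump was 0.957 to 2.70 in high-fat tea mice, 2.40 to 3.78 in high-fat water mice, 1.98 to 2.44 in chow tea mice and 1.41 to 2.46 in chow water mice. The 0.957 belongs to high-fat tea replicate 4, and the other groups reached into the lower end of the high-fat water range.

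**Figure D4:**
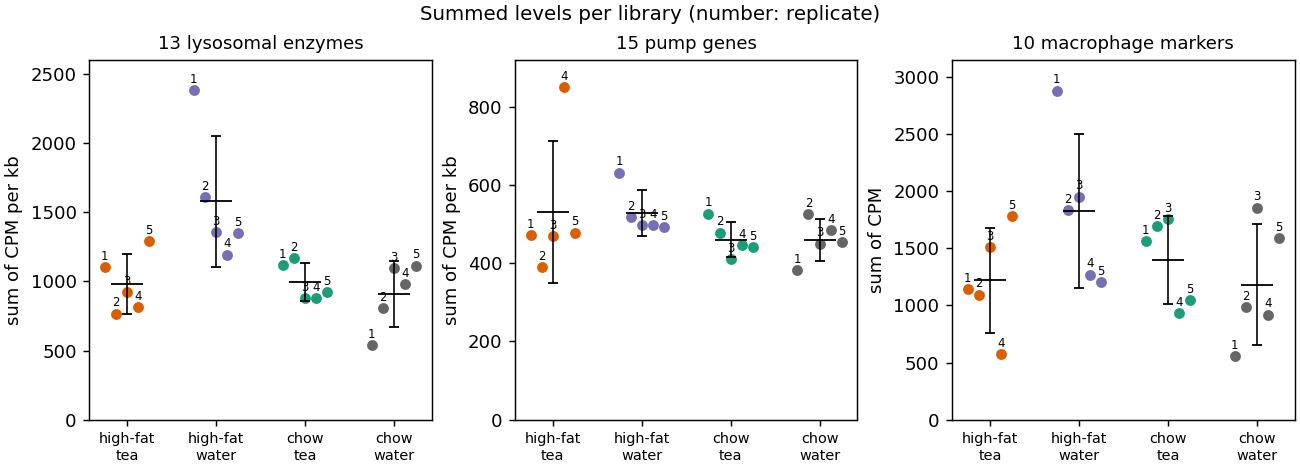
Sums over 13 lysosomal enzymes and 15 pump genes in CPM per kb, and over 10 macrophage markers in CPM, in each library (points, numbered by replicate), with mean and SD of 5 mice per group (black). High-fat water replicate 1 is the highest library in the enzyme and macrophage sums, and high-fat tea replicate 4 is the highest in the pump sum.

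Tea made no called difference to the members in chow-fed mice. Of 38 members 0 were called in chow tea against chow water mice by edgeR, with 2 at an unadjusted p below 0.05, against 0.0235% of all genes called and 12.4% at an unadjusted p below 0.05. DESeq2 called 0 as well, against 1.22% of all genes called by DESeq2. The median log2 difference was 0.11 over the enzymes and 0.01 over the pump. Gla was at 6.73, 6.24, 4.98, 5.75 and 4.52 CPM in chow tea mice, against 4.30, 5.88, 8.14, 4.98 and 6.80 CPM in chow water mice, with a 95% interval of the log2 difference from −0.63 to 0.44. Gusb was at 49.1, 56.4, 47.9, 41.4 and 46.9 CPM in chow tea mice, against 37.4, 38.4, 58.6, 42.6 and 57.0 CPM in chow water mice, with an interval from −0.38 to 0.47. In both genes the groups overlapped throughout. Atp6v0a1 was at 99.3, 90.0, 84.2, 94.0 and 92.1 CPM in chow tea mice, against 60.2, 77.1, 93.2, 84.1 and 111 CPM in chow water mice, with an interval from −0.37 to 0.59.

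High-fat against chow feeding was also compared in mice that drank the extract. Of 38 members 0 were called in high-fat tea against chow tea mice by edgeR, with 5 at an unadjusted p below 0.05, against 0.178% of all genes called and 16.3% at an unadjusted p below 0.05. DESeq2 called 1, Tfeb, against 4.39% of all genes called by DESeq2. Tfeb was at 27.9, 14.0, 16.4, 18.6 and 14.2 CPM in high-fat tea mice, against 14.2, 9.46, 10.7, 12.6 and 10.9 CPM in chow tea mice, and only high-fat tea replicate 2 lay below the highest chow tea library (log2 0.66, SE 0.19, adjusted p = 0.136). The highest of these libraries, high-fat tea replicate 1, held 27500 CPM of skeletal muscle genes, and without it and high-fat water replicate 5 the log2 difference was 0.45 (adjusted p = 0.22). The log2 difference was 0.51 for Gla (95% interval −0.02 to 1.04, adjusted p = 0.326) and 0.44 for Gusb (0.01 to 0.87, adjusted p = 0.298). The enzymes had a median of 0.002. The pump had a median of 0.18, and of −0.07 without high-fat tea replicate 4.

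Whether the effect of tea differed between the diets was tested with an interaction term. Of 38 members 0 were called by edgeR, with 10 at an unadjusted p below 0.05, 7 of them enzymes, against 0.0657% of all genes called and 15% at an unadjusted p below 0.05. DESeq2 called 1, Gusb, against 3.25% of all genes called by DESeq2. The lowest p belonged to Gusb, with a log2 difference between the effects of −1.06 (SE 0.29, 95% interval −1.66 to −0.45, adjusted p = 0.125). Gla had −1.08 (95% interval −1.83 to −0.32, adjusted p = 0.162) and Atp6v0a1 −0.94 (−1.62 to −0.26, adjusted p = 0.175). The median was −0.71 over the enzymes, 12 of 13 below 0, and 0.01 over the pump (−0.24 without high-fat tea replicate 4), against 0.05 over all genes tested.

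Calls were also set beside the promoter motif. In the diet comparison 2 of the 11 members with CACGTG were called (Ctsl and Gla), against 8 of the 20 members with a window and no CACGTG. Of all genes tested, 15.2% were called there. With TCACGTGA 1 of 7 was called (Gla), and without it 9 of 24. In the tea comparison 1 of 11 with CACGTG was called (Gla) and 2 of 20 without it (Gusb and Atp6v0a1, whose windows are printed above). With TCACGTGA 1 of 7 was called and without it 2 of 24, against 4.36% of all genes tested. A link between motif and calls was not tested.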

How the data were processed

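For each of 20 libraries the authors deposited a table of whole-number counts of reads per gene, without scaling. The tools named per the submitters' processing notes were fastp (0.23.2), HISAT2 (2.2.1) and featureCounts (2.0.6). The counter, per the file headers, read a GENCODE annotation of GRCm39, took read pairs without merging each pair into 1 fragment, and ignored strand. Even numbers made up 68.1% to 72.2% of counts from 1 to 20, so most fragments entered as 2 reads. Per the labels' protocols, the kit was a stranded poly-A one, but strand was ignored in counting, so genes that overlap on opposite strands share reads. Of the 38 members, 11 overlap another gene, 2 of them over more than 20% of their exonic bases. Gene positions are GRCm39, although the processing notes name mm10.

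Genes with low counts were removed with filterByExpr (10 counts in 5 libraries, 15 in total), leaving 21306 and removing 35499. The quasi-likelihood F test of edgeR 4.0.16 (R 4.3.3, TMM scaling) used 4 group means and all 20 libraries in 1 fit, with Benjamini-Hochberg adjustment over 21306 genes. The common biological coefficient of variation was 0.593. SE is the size of the fold change divided by the root of F, and 95% intervals used the fit's degrees of freedom. Alternatives were DESeq2 1.42.0, limma 3.58.1 voom, other scaling, no filter, fewer libraries and a replicate block. The steps were tested on simulated counts. Over 40 pairs of libraries within groups, none agreed within sampling noise (lowest chi-square 78.7 per gene).

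The 38 members and all other lists were chosen with earlier results of these data known. Values in every library are given for members called in any comparison and for the 3 MiT/TFE factors. Of each other list up to 3 genes with the lowest p per comparison may be named, together with Atp6v0d2, Tcirg1, Tfec, Ctss, Cd68, Adipoq and Plin1, and any other gene is marked as named after its values were seen. RefSeq promoters of GRCm38.p6 matched 31 of 38 members by symbol, and no coordinate was converted between builds.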

Additional observations from a re-analysis of the deposited data

Results flagged for a closer look

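For 13 named members and 2 summed levels, each set of 5 libraries of a group was searched for a single value far from the other 4, with Dixon's ratio of the gap to the range against its 95% critical value of 0.71. Of 60 sets, 4 passed, and chance alone passes about 1 in 20. Ctsk was at 159.1 CPM in high-fat water replicate 1, against 51.4 to 73.5 CPM in the other 4 high-fat water libraries. Ctsl was at 1675 CPM in the same library, against 674 to 875 CPM in the others. The sum of the 15 pump genes was 631.1 CPM per kb there, against 492.9 to 518.4 CPM per kb in the others. In high-fat tea replicate 4 that sum was 850.0 CPM per kb, against 389 to 478 CPM per kb in the other 4 high-fat tea libraries. High-fat water replicate 1 also had the highest macrophage sum (2880 CPM) and high-fat tea replicate 4 the highest kidney sum (22170 CPM) of the 20 libraries, and the part of either in these values was not tested.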

How the results depend on the processing

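In high-fat water against chow water mice, 8 to 14 members were called under the alternatives with all replicates or without the 3 libraries with the most pancreas, kidney or accessory gland transcripts (11 as reported). Of all genes, 5.74% to 21.2% were called in these fits. Leaving out 1 library gave 4 to 11, with 8.69% to 15.8% of all genes called. In high-fat tea against high-fat water mice, 3 members were called as reported and 7 by DESeq2, with 4.36% and 11.5% of all genes called. A fit of only the groups compared called 0 members (0.107% of all genes), and the fit without the 3 libraries called 8 (7.48%). Leaving out 1 library gave 1 (high-fat water replicate 1, high-fat tea replicate 2 or 3) to 7 (high-fat tea replicate 5). At most 1.53% of all genes were called in the fits with 1 call, and 9.26% in the fit with 7. DESeq2 called 1 member in high-fat tea against chow tea mice (Tfeb) and 1 in the interaction (Gusb). It called 4.39% and 3.25% of all genes there. Without the 2 libraries with the most skeletal muscle transcripts, added after the data were seen, 10 were called for diet in water-drinking mice, Ctsb no longer, and 2 for tea on the high-fat diet, Atp6v0a1 no longer. Of all genes, 11.1% and 1.91% were called there. The cause of these shifts was not tested, except that a fit of only the groups compared has fewer libraries. Of the called members, none changed sign under any alternative run.

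Mice were not treated as paired by replicate number in the main fit. Correlations of same-numbered libraries ran from −0.27 to 0.393, which cannot exclude a shared batch. With a replicate block 10 members were called for diet in water-drinking mice (12.3% of all genes), Ctsb no longer, and 3 for tea on the high-fat diet (2.97% of all genes), with 0 in the other comparisons.

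Over all genes, calls for tea on the high-fat diet numbered 928 as reported, 2444 by DESeq2, 408 without a filter on low counts, 21 in a fit of only the groups compared, 1602 without the 3 libraries and 412 without the 2 muscle-rich libraries. DESeq2 gave 260 calls for tea on chow (5 by edgeR), 935 for diet in tea-drinking mice (38 by edgeR) and 692 for the interaction (14 by edgeR). The lowest count of any member in any library was 132 reads (Gla), so depth limits these members less than it limits rare genes.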
